A study of Mus musculus with 6 samples.

Results

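Homologous recombination and the Fanconi anaemia pathway repair DNA double-strand breaks and DNA interstrand crosslinks. At a break, the MRE11-RAD50-NBS1 complex and CtIP start the trimming of the ends, the BRCA proteins and their partners prepare the exposed single strand, and the matching sequence of the sister chromatid serves as the template. At a crosslink, the Fanconi core complex attaches ubiquitin to the FANCD2-FANCI pair, which calls in the nucleases that unhook the lesion. The kinases ATM and ATR signal the damage to CHK2 and CHK1, which hold the cell cycle. Many of these genes are transcribed mainly around S phase.

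The set described here holds 33 such genes, found in all 6 tables by symbol, out of 54446 listed genes. They were chosen by symbol from general knowledge, with earlier results of these data known. Expression was measured by RNA sequencing in wild-type Lewis cells, a mouse lung carcinoma line, in a stem-like state; 3 libraries were untreated (Control) and 3 came from cells given RT-MPs, which is not spelled out in the labels, and all were labelled 48 h. Both groups were grown in DMEM with 2% fetal bovine serum and antibiotics. Nothing in the labels says that replicates were grown separately, and the spread behind each p-value is that of these libraries alone, which may be technical. Values are FPKM, reads or fragments normalised to gene length and library size, so that levels can be set side by side between genes of different length. Changes are differences of log2(FPKM + 1) between RT-MPs and Control, tested with limma over the 11915 genes with a mean of at least 1 FPKM; a gene is called where the Benjamini-Hochberg adjusted p is under 0.05. All 33 genes passed that minimum.

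The read totals that the values imply lay between 16948664 and 21876480, and 100 reads in a gene of 2 kb corresponded to 2.29 to 2.95 FPKM. RT-MPs replicate 3 stood apart: 5 genes grouped here as rRNA-like, chosen after their values were seen, took 6.56% of its reads and 0.148% to 0.175% elsewhere. Among these 5 genes, Lars2 is protein-coding. On the log2(FPKM + 1) scale RT-MPs replicate 3 correlated at 0.959 to 0.969 with the rest, which correlated at 0.984 to 0.993 among themselves. Changes of named genes that RT-MPs replicate 3 moved by over 1.5 times are given with and without that library. The mesenchymal filament gene Vim (918.1 to 954.3 FPKM) and the epithelial keratin gene Krt8 (142.7 to 174.3 FPKM) were high in all libraries, Krt18 was at 6.03 to 8.16 FPKM, and the leukocyte markers Cd3e and Adgre1 were listed at 0. Among stem-cell factors, Nanog was listed at 0, Sox2 and Prom1 reached at most 0.0469 and 0.0072 FPKM, and Klf4 lay between 2.25 and 3.71 FPKM. The fibroblast list summed to 196.0 to 199.1 FPKM in Control and 169.7 to 189.9 FPKM in RT-MPs; Its members did not go one way: Col3a1 was at 140.6 to 145.0 FPKM in Control and 113.9 to 133.3 FPKM in RT-MPs, Pdgfra at 15.4 to 16.6 and 9.98 to 14.0 FPKM, but Dcn at 38.2 to 38.9 and 42.3 to 45.8 FPKM. Col1a1 was at most 0.0237 FPKM. The part of these differences in the results below was not tested. In bulk RNA, fewer cells of a type and less RNA per cell cannot be told apart.

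The promoters were searched for short motifs, which the choice of genes did not use. RefSeq promoter windows on GRCm38.p6, from 250 bases before to 50 bases after the start, were at hand for 25 of the 33 genes. The E2F motif (TTTCCCGC, TTTGGCGC, TTTCGCGC or TTTGCCGC on either strand), named for the factors that switch on S-phase genes, was found for 7 of the 25, or 28%, for 5.00% of the 8513 tested genes with a window, and for 2.26% of all 32851 windows. DNA replication genes had it in 42.9% of 35 genes and G2 and mitosis genes in 3.23% of 31. The CHR motif TTTGAA, which marks many mitotic genes, was found for 8% of the repair genes, 14.3% of the replication genes and 71.0% of the mitosis genes, and for 14.2% of tested genes and 17.9% of all windows. CCAAT was found for 64% of the repair genes and 43.8% of tested genes (37.4% of all windows). A match describes the letters only, and no enrichment was tested. The motif lay wholly ahead of the RefSeq start in 5 genes, shown here to let its contexts be compared, 5′ to 3′ on the strand of the gene with the E2F motif in capitals.
Bard1, chr1:71103154-71103201, minus strand: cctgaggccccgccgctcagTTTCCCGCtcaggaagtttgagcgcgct
Fancg, chr4:43010326-43010373, minus strand: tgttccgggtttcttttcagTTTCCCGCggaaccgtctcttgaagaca
Chek2, chr5:110839811-110839858, plus strand: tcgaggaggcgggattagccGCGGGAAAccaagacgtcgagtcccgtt
Brca2, chr5:150522433-150522480, plus strand: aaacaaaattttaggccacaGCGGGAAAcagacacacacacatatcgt
Topbp1, chr9:103305178-103305225, plus strand: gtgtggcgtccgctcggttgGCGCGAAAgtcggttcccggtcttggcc

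Bard1 and Fancg held the same 8 letters in the sense direction, Chek2 and Brca2 held them on the other strand, and Topbp1 held the variant with CGCG. The motif began 52 bases before the RefSeq start in Fancg and 209 bases before it in Bard1. In the GENCODE model Fancg spans 43002343 to 43010506, so there its motif lies within the gene. In Clspn and Rad51c the motif lay at or after the RefSeq start. Members with the E2F motif had a median log2 change of −0.23 (7 genes, −0.38 to −0.06), and those without it −0.18 (18 genes, −0.46 to 0.24), so the ranges overlapped widely. For CCAAT the median was −0.15 with it (16 genes, −0.43 to 0.24) and −0.33 without it (9 genes, −0.46 to 0.00), again with wide overlap.

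In untreated cells the 33 genes were low, with a median of 3.73 FPKM against 7.85 FPKM over all tested genes. Their levels ranged from Fancc, a core subunit, at 0.963 ± 0.0538 FPKM to Fanca, another core subunit, at 33.4 ± 0.782 FPKM (SD, n = 3). After Fanca came Rad50 (18.5 ± 0.571 FPKM), Topbp1 (17.8 ± 0.589 FPKM) and Mre11a (13.5 ± 0.777 FPKM). The kinase genes Atm (8.08 ± 0.432 FPKM) and Atr (7.10 ± 0.171 FPKM), and the partners Brca1 (6.34 ± 0.421 FPKM) and Bard1 (6.06 ± 0.287 FPKM), lay above the median of the set. Members of a single complex could differ widely, since Fanca stood above the next core subunit, Fancg at 4.73 ± 0.0992 FPKM, without any overlap. Chromosome 9 carries 6 of the 33 genes, among them Atm, Atr, Atrip, Chek1 and Topbp1, and chromosomes 4 and 11 carry 5 each.

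Between the groups 1 of the 33 genes, Fancl, was called, and it was lower in RT-MPs. This is 3.03% of the set, against 3.99% of all tested genes called in either direction, 2.70% lower and 1.29% higher, so the count was near the background. A further 28 genes had a lower and 4 a higher mean log2 value in RT-MPs; lower means were found in 66.9% of all tested genes. The median log2 change was −0.16 for the set and −0.09 for all tested genes. Unadjusted p-values under 0.05 were found for 9 of the 33 genes (27.3%) and for 27.3% of all tested genes. Values of the 2 groups did not overlap in 12 genes that were lower and 1 that was higher; the shares over all tested genes were 30.4% and 9.61%.

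**Figure D1:**
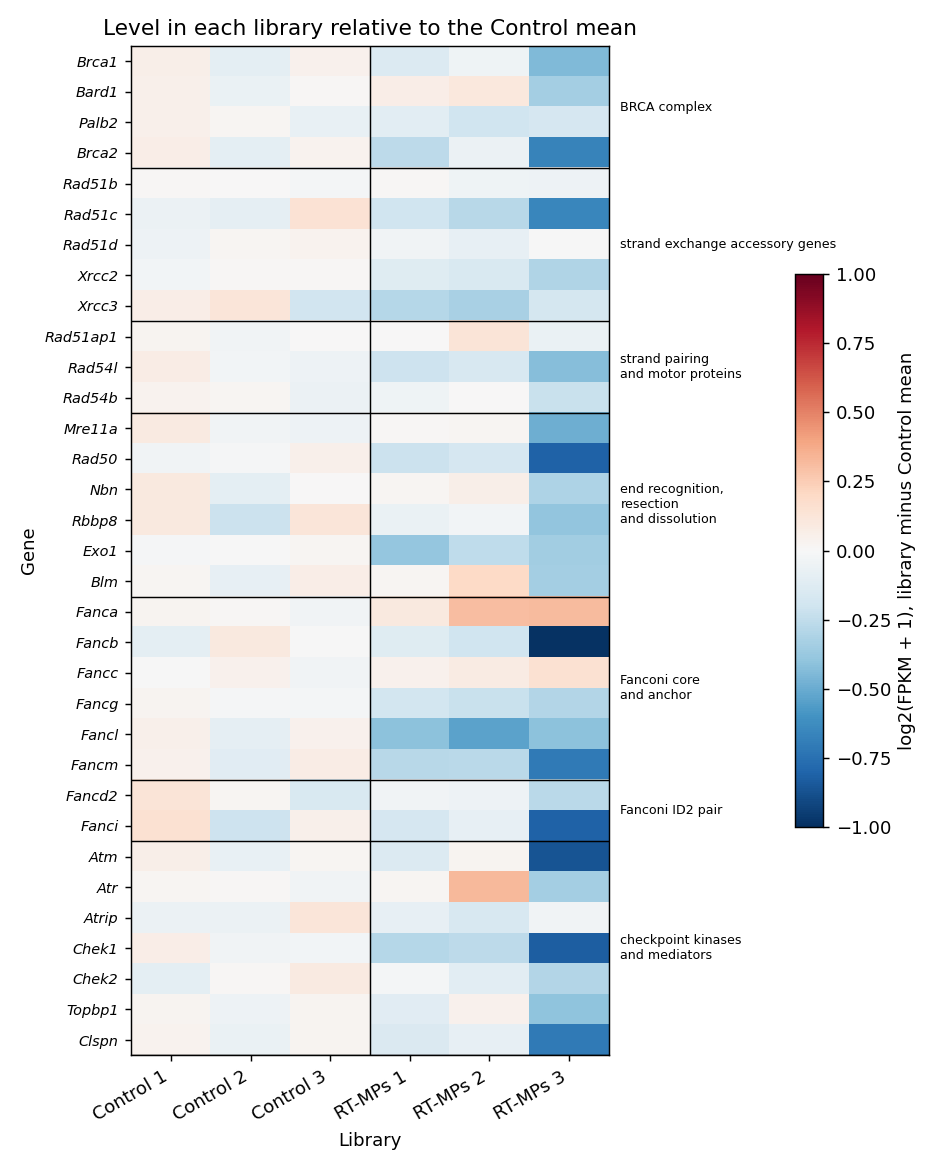
Each row is a gene, grouped by role, and each column a library; colour gives log2(FPKM + 1) minus the mean of the 3 Control libraries. RT-MPs replicate 3 holds most of the dark blue cells (lowest of the 6 libraries in 25 genes), while Fancl is blue in all 3 RT-MPs libraries and Fanca red in all 3.

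Fancl, the ubiquitin ligase subunit of the Fanconi core complex, is on the plus strand of chromosome 11 (26386135 to 26471876, mm10). It was at 2.08, 1.80 and 2.06 FPKM in Control replicates 1 to 3 and at 1.23, 1.06 and 1.24 FPKM in RT-MPs replicates 1 to 3. All RT-MPs values lay below all Control values, and RT-MPs replicate 3 was not apart from replicates 1 and 2. The means were 1.98 ± 0.155 and 1.18 ± 0.105 FPKM (SD, n = 3 in each group), a log2 change of −0.45 (SE 0.09, limma adjusted p = 0.0470). The values rest on 114 to 145 recovered reads in Control and 65 to 91 in RT-MPs. On those reads limma voom, which does not add a pseudocount of 1 FPKM, gave a log2 change of −0.75 (adjusted p = 0.0323); it called 2 of the 33 genes, Fancl and Exo1, both lower, where 5.02% of all genes were called lower and 1.69% higher. The call sat at the threshold: Fancl was called without RT-MPs replicate 3 (−0.47, adjusted p = 0.0193), was not called when any other library was left out (adjusted p between 0.0842 and 0.233), and was not called under median-ratio scaling (0.0699) or quantile normalization (0.0842). No tested gene at all was called without Control replicate 1 or 3, so those losses are not particular to Fancl. The exons of Fancl overlap those of Vrk2, a kinase gene on the opposite strand, over 462 bases or 13.7% of the exon length of Fancl; Vrk2 was at 1.74 to 1.89 FPKM in Control and 1.12 to 1.44 FPKM in RT-MPs. Whether counting used strand is not given in the sources used here, so reads of the shared stretch are uncertain.

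The other core subunits did not move as a block, and none of them was called. Fancg, which binds FANCA, was at 4.85, 4.68 and 4.67 FPKM in Control and 4.06, 3.91 and 3.67 FPKM in RT-MPs, with no overlap (log2 change −0.23, SE 0.07, adjusted p = 0.0904). Fancm, a DNA translocase that anchors the core complex, was at 2.28, 1.96 and 2.35 FPKM in Control and 1.64, 1.65 and 0.955 FPKM in RT-MPs (−0.42, SE 0.14, adjusted p = 0.125; −0.27 without RT-MPs replicate 3). Fancb, another core subunit, was at 1.99, 2.43 and 2.19 FPKM in Control and 1.95, 1.78 and 0.613 FPKM in RT-MPs. RT-MPs replicate 3 set most of the Fancb difference, since the log2 change was −0.43 with that library (SE 0.23) and −0.16 without it. Fancc was at 0.959, 1.02 and 0.911 FPKM in Control and 1.02, 1.08 and 1.18 FPKM in RT-MPs, and the groups overlapped.

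Fanca was the only one of the 33 genes with all RT-MPs values above all Control values. It was at 34.1, 33.7 and 32.6 FPKM in Control and 35.9, 41.7 and 42.0 FPKM in RT-MPs, with a log2 change of 0.24 (SE 0.08), and it was not called (adjusted p = 0.108). The sign of its change depended on scaling: rescaling every library to a common sum (TPM), which lowers RT-MPs replicate 3 as a whole, gave −0.06. The median of all tested genes was then −0.38, against −0.09 as deposited, so Fanca stayed above that median in both. Fanca lies on the minus strand of chromosome 8 (123268300 to 123318576, mm10), and 920 bases of its exons, 10.5% of their length, overlap exons of Zfp276 on the opposite strand, which was at 7.68 to 8.19 FPKM in Control and 7.17 to 8.43 FPKM in RT-MPs. The 250 bases ahead of its start are shown because its level stood so far above those of its partner subunits. Capitals mark 2 CCAAT boxes and 1 GC box (GGGCGG, here on the other strand). CCAAT was found in 37.4% of all promoter windows and for 43.8% of tested genes with a window. The GC box was found in 35.7% of all windows and for 71.2% of those tested genes. Both motifs were also found for Fancb and Fancm, each at 2.20 FPKM in Control, and neither for Fancg and Fancl. A link of motif and level was not tested.
Fanca, chr8:123318577-123318826, minus strand: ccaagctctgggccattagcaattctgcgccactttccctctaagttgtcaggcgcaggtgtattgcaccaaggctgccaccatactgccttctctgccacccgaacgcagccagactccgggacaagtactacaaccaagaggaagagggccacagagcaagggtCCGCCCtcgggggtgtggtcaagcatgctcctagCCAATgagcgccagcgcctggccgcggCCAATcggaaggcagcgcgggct

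The pair that the core complex modifies had no called gene. Fancd2 was at 3.15, 2.86 and 2.42 FPKM in Control and 2.71, 2.67 and 2.15 FPKM in RT-MPs, and the groups overlapped (−0.12, SE 0.11; −0.04 without RT-MPs replicate 3). Fanci was at 2.26, 1.55 and 2.05 FPKM in Control and 1.61, 1.77 and 0.674 FPKM in RT-MPs. Its log2 change of −0.36 (SE 0.21) became −0.13 without RT-MPs replicate 3. Polg, on the opposite strand, overlaps 16.0% of the exon length of Fanci and was at 3.40 to 3.58 FPKM in Control and 3.54 to 3.89 FPKM in RT-MPs.

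**Figure D2:**
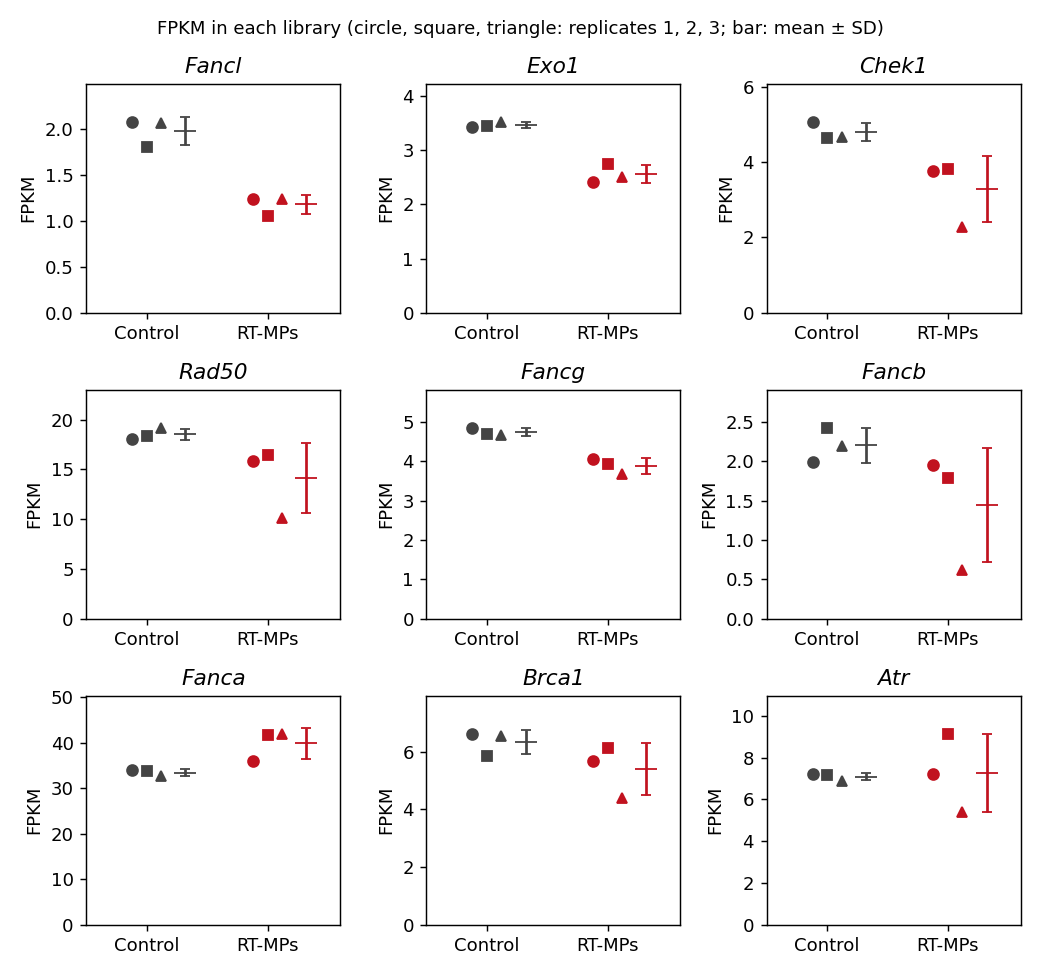
FPKM of 9 genes in each library, with the group mean and SD as a bar beside the points. Fancl (1.80 to 2.08 against 1.06 to 1.24 FPKM) and Exo1 are lower in all 3 RT-MPs libraries to a like degree, Chek1, Rad50 and Fancb are lowest in RT-MPs replicate 3 (triangle), and Atr shows no order between the groups.

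Of the genes that recognise and trim broken ends, Exo1 came closest to the threshold. This 5′ to 3′ exonuclease carries out long-range resection. It was at 3.42, 3.46 and 3.52 FPKM in Control and 2.42, 2.74 and 2.51 FPKM in RT-MPs, with no overlap and little spread in either group. The log2 change was −0.33 (SE 0.07, adjusted p = 0.0557); limma voom on the recovered reads called it (−0.44, adjusted p = 0.0299), as did the fit without RT-MPs replicate 3 (−0.32, adjusted p = 0.0230). Rad50, the coiled-coil subunit that tethers the ends, was at 18.1, 18.3 and 19.2 FPKM in Control and 15.9, 16.4 and 10.1 FPKM in RT-MPs (−0.40, SE 0.17, adjusted p = 0.189). Without RT-MPs replicate 3 the change of Rad50 was smaller, −0.19, but it was called (adjusted p = 0.0290), since its other values lay close together. Its partners in the same complex overlapped between the groups. The nuclease gene Mre11a was at 14.4, 13.1 and 13.0 FPKM in Control and 13.6, 13.7 and 9.34 FPKM in RT-MPs. The log2 change of Mre11a was −0.15, and 0.02 without RT-MPs replicate 3. The adaptor gene Nbn was at 6.27, 5.33 and 5.79 against 5.88, 6.08 and 4.47 FPKM (−0.08, and 0.04 without RT-MPs replicate 3). Rbbp8, which encodes CtIP, was at 8.76, 6.85 and 8.93 FPKM in Control and 7.72, 7.95 and 5.93 FPKM in RT-MPs (−0.16, and −0.05 without RT-MPs replicate 3). Blm, a helicase that dissolves recombination intermediates, had a log2 change of −0.04 (SE 0.14), and 0.11 without RT-MPs replicate 3.

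The BRCA genes held no called member. Brca1 was at 6.62, 5.85 and 6.53 FPKM in Control and 5.68, 6.12 and 4.38 FPKM in RT-MPs (−0.21, SE 0.12, adjusted p = 0.289; −0.09 without RT-MPs replicate 3). Bard1, its obligate partner, was at 6.32, 5.75 and 6.11 FPKM in Control and 6.40, 6.58 and 4.57 FPKM in RT-MPs. RT-MPs replicates 1 and 2 of Bard1 were above all Control values and replicate 3 below them, so its direction turned with that library (−0.06 with it, 0.08 without). Brca2, a partner of PALB2 at the exposed strand, was at 3.63, 3.14 and 3.52 FPKM in Control and 2.70, 3.25 and 1.79 FPKM in RT-MPs (−0.33, SE 0.16; −0.16 without RT-MPs replicate 3). Palb2, the bridge between BRCA1 and BRCA2, was at 1.71, 1.66 and 1.49 FPKM in Control and 1.44, 1.28 and 1.33 FPKM in RT-MPs; its groups did not overlap (−0.15, SE 0.09, adjusted p = 0.282).

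The strand exchange accessory genes Rad51b, Rad51c, Rad51d, Xrcc2 and Xrcc3 included no called gene. Rad51c was at 3.07, 2.99 and 3.67 FPKM in Control and 2.68, 2.49 and 1.70 FPKM in RT-MPs (−0.38, SE 0.14, adjusted p = 0.141; −0.24 without RT-MPs replicate 3). Xrcc2 was at 2.01, 2.09 and 2.08 FPKM in Control and 1.81, 1.76 and 1.48 FPKM in RT-MPs (−0.19, SE 0.09). The groups did not overlap in either gene. Xrcc3, the partner of RAD51C in a heterodimer, was at 2.39, 2.53 and 1.85 FPKM in Control and 1.66, 1.59 and 1.87 FPKM in RT-MPs, where 1 Control value lay among the RT-MPs values. Rad51b (1.46 to 1.57 FPKM) and Rad51d (4.56 to 5.02 FPKM) stayed within narrow ranges that both groups shared. Rad51b had a log2 change of −0.03, and −0.01 without RT-MPs replicate 3. Among the genes of strand pairing, the motor protein gene Rad54l was at 3.16, 2.87 and 2.82 FPKM in Control and 2.43, 2.53 and 1.94 FPKM in RT-MPs (−0.26, SE 0.10, adjusted p = 0.142). Its relative Rad54b (−0.09, SE 0.08) and Rad51ap1, which stimulates strand pairing (0.02, SE 0.07), overlapped between the groups. Without RT-MPs replicate 3 their changes were −0.02 and 0.07. Lrrc41, on the opposite strand and at 17.9 to 20.6 FPKM, overlaps 15.4% of the exon length of Rad54l, and Fsbp, on the same strand, 35.8% of that of Rad54b.

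No checkpoint gene was called. Chek1, the kinase downstream of ATR, had, with Fancl, the lowest log2(FPKM + 1) change of the set over all 6 libraries. It was at 5.07, 4.65 and 4.67 FPKM in Control and 3.77, 3.82 and 2.27 FPKM in RT-MPs, without overlap (−0.46, SE 0.16, adjusted p = 0.128). Without RT-MPs replicate 3, Chek1 was called at −0.27 (adjusted p = 0.0244). Clspn, the adaptor through which ATR reaches CHK1, was at 4.39, 4.01 and 4.36 FPKM in Control and 3.75, 3.97 and 2.22 FPKM in RT-MPs (−0.31, SE 0.17; −0.11 without RT-MPs replicate 3). Atr itself was at 7.22, 7.17 and 6.90 FPKM in Control and 7.22, 9.15 and 5.40 FPKM in RT-MPs, and its RT-MPs values spanned those of Control (0.00, SE 0.16; 0.17 without RT-MPs replicate 3). Topbp1, the activator of ATR, was at 18.1, 17.1 and 18.2 FPKM in Control and 16.4, 18.4 and 13.2 FPKM in RT-MPs (−0.16, and −0.03 without RT-MPs replicate 3). Atm was at 8.45, 7.61 and 8.19 FPKM in Control and 7.25, 8.27 and 3.98 FPKM in RT-MPs, so that its log2 change of −0.32 (SE 0.22) was −0.05 without RT-MPs replicate 3. Chek2, the target of ATM, had a change of −0.14 (SE 0.10), and −0.06 without that library. Atrip, the partner of ATR, had −0.09 (SE 0.09); its exons share 1147 bases, 16.0% of their length, with Trex1 on the same strand, which was listed at 0 in all 6 libraries, so its level is uncertain.

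**Figure D3:**
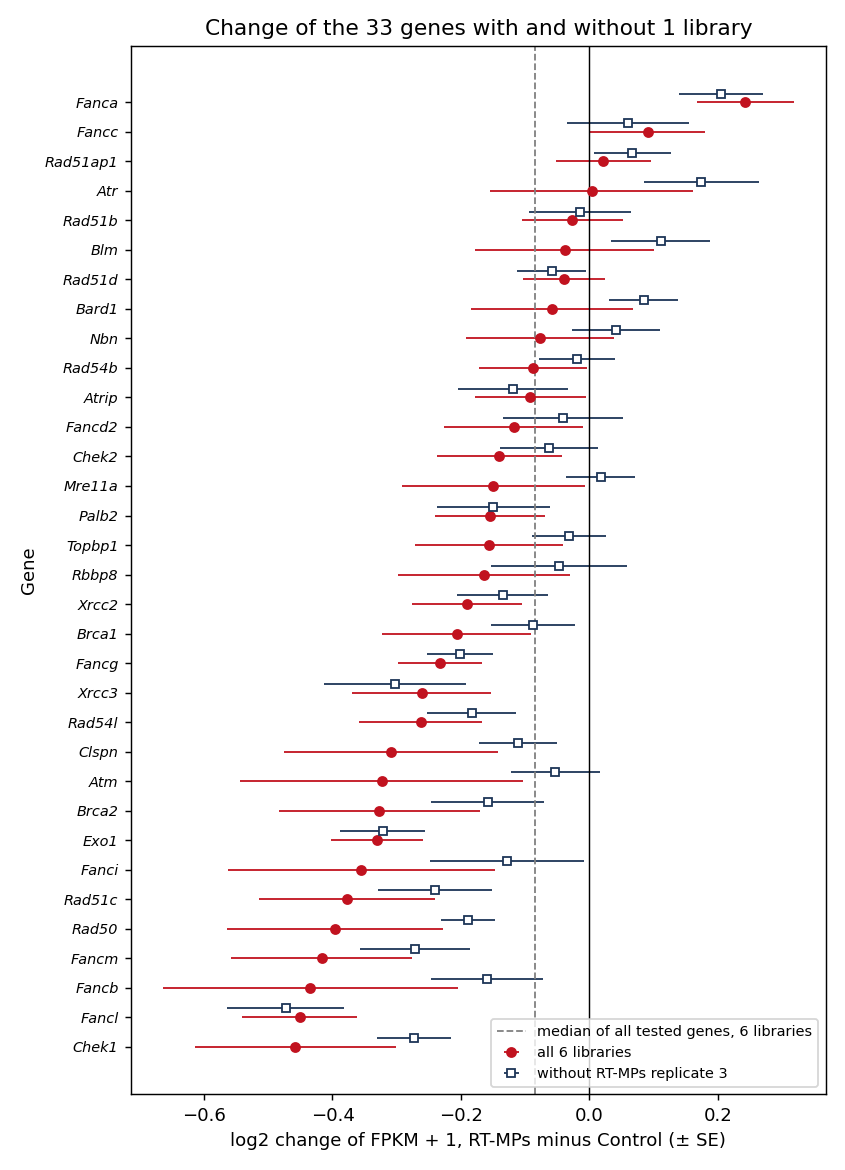
Log2 change of FPKM + 1 with its SE for each of the 33 genes, over all 6 libraries (filled) and without RT-MPs replicate 3 (open); the dashed line is the median of all tested genes, −0.09. Most genes move towards 0 without that library, while Fancl (−0.45 and −0.47) and Exo1 (−0.33 and −0.32) keep their place.

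RT-MPs replicate 3 was the lowest of the 6 libraries in 25 of the 33 genes, 75.8%, and in 47.9% of all tested genes. Without it 5 of the 33 genes were called, all lower: Fancl, Exo1, Rad50, Chek1 and Fancg. That is 15.2% of the set, against 21.4% of all tested genes in either direction, 15.1% lower and 6.26% higher, again near the background. The median log2 change was then −0.09 for the set and −0.06 for all tested genes. RT-MPs replicates 1 and 2 both lay below every Control library in 14 genes, 42.4%, against 38.6% of all tested genes, and both above in 3, Fanca, Atr and Bard1, or 9.09%, against 16.8%.

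The low values in RT-MPs replicate 3 went with coding length. The ratio of that library to the mean of RT-MPs replicates 1 and 2 had a median of −0.09 on the log2(FPKM + 1) scale for the 8 genes with a coding length under 1500 bases, −0.24 for the 12 genes from 1500 to under 3000 bases and −0.45 for the 13 genes of 3000 bases or more. Over all tested coding genes the medians in these classes were 0.00, −0.16 and −0.28. The rank correlation of length and ratio was −0.50 over the 33 genes and −0.42 over 10299 coding genes, which all share the same 3 libraries and are not independent. The set is long, with a median coding length of 2511 bases against 1386 bases. Atm, with 9198 bases, had a ratio of −0.81, and Fancl, with 1125 bases, 0.06. Fancb, with 2586 bases, and Chek1, with 1428 bases, had −0.83 and −0.55, below the medians of their length classes, and Fanca, with 4317 bases, 0.11. The part of RNA quality in these values was not tested.

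**Figure D4:**
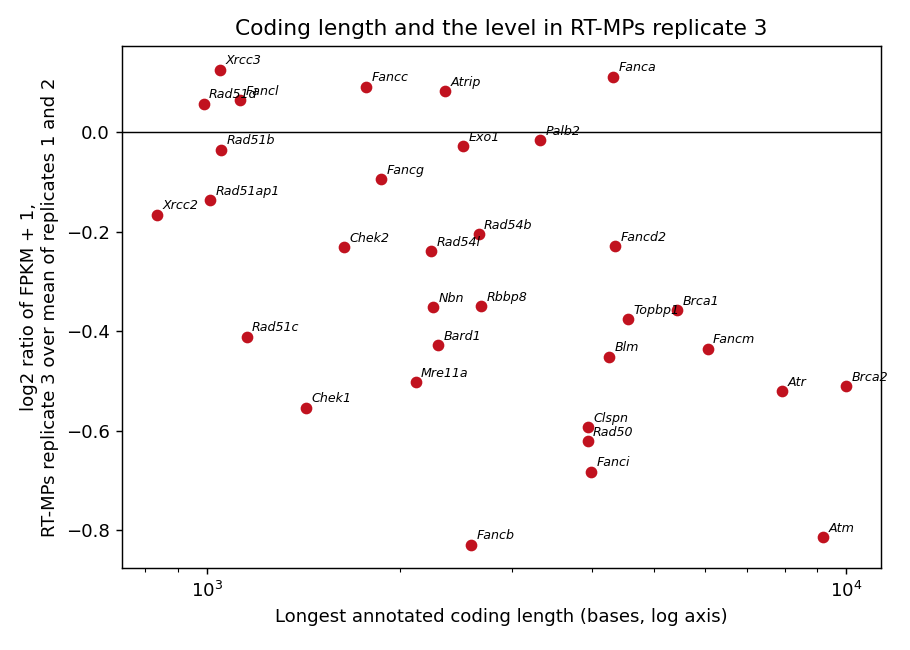
Each point is 1 of the 33 genes: the x axis is its longest annotated coding length in bases (log axis) and the y axis the log2 ratio of FPKM + 1 in RT-MPs replicate 3 over the mean of RT-MPs replicates 1 and 2. Long genes such as Atm (−0.81) and Brca2 (−0.51) lie low, and short genes such as Fancl (0.06) and Rad51d (0.06) lie near 0, while long Fanca (0.11) and short Chek1 (−0.55) go against that order.

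A further 61 genes of homologous recombination, crosslink repair and its checkpoint were listed, of which 57 were tested. None was called by limma, against 3.99% of all tested genes. An unadjusted p under 0.05 was found for 18 of the 57 and for 27.3% of all tested genes. With limma voom on recovered reads 2 were called, both lower, where 5.02% of all genes were called lower. The median log2 change of the 57 was −0.17, close to that of the 33 genes. A negative value was found for 49 of them and for 66.9% of all tested genes. Rpa1, which encodes the large subunit of the single-strand binding protein, was at 16.5, 15.9 and 16.0 FPKM in Control and 14.1, 13.1 and 12.1 FPKM in RT-MPs, without overlap (−0.28, SE 0.07, adjusted p = 0.0682). Ube2t, the ubiquitin-conjugating enzyme that works with FANCL, lay in the other direction, at 7.29, 7.23 and 7.58 FPKM in Control and 8.56, 8.91 and 7.87 FPKM in RT-MPs (0.17, SE 0.07, adjusted p = 0.155; −0.10 after rescaling to a common sum). After that rescaling the median of all tested genes was −0.38. Usp1, which removes ubiquitin from FANCD2, had −0.26 (SE 0.13), the helicase gene Brip1 −0.29 (SE 0.16), Rad52 −0.08 (SE 0.08) and Trp53bp1, which favours end joining over resection, −0.10 (SE 0.10). Without RT-MPs replicate 3, Usp1 and Brip1 had −0.11 each and Trp53bp1 0.00. Without RT-MPs replicate 3, 12 of the 57 were called lower and 2 higher, 24.6% in all, near the 21.4% of all tested genes; Rpa1 (−0.23, adjusted p = 0.0208) was among the former and Ube2t (0.22, adjusted p = 0.0243) among the latter.

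Other repair and cell cycle genes set the scale for this. Of 14 end-joining genes, 2 were called, the Ku subunits Xrcc5 and Xrcc6, which bind the ends that resection would open. Xrcc5 was at 24.0, 22.4 and 24.2 FPKM in Control and 18.4, 15.6 and 14.6 FPKM in RT-MPs (−0.52, SE 0.09, adjusted p = 0.0395), and Xrcc6 at 14.5, 12.8 and 13.2 against 10.4, 10.2 and 9.28 FPKM (−0.40, SE 0.07, adjusted p = 0.0414). Both fell. Of 32 excision and mismatch repair genes, 1 was called: Apex1, the abasic site endonuclease, fell (−0.40, SE 0.07, adjusted p = 0.0377). DNA replication genes had 2 of 43 called, both lower, the origin-binding Orc2 (−0.45, SE 0.09, adjusted p = 0.0478) and the helicase subunit Mcm2 (−0.36, SE 0.07, adjusted p = 0.0476), while the sliding clamp gene Pcna had −0.09 (SE 0.06). G2 and mitosis genes had 1 of 40 called, and higher, the mitotic kinase gene Aurkb (0.34, SE 0.06, adjusted p = 0.0395). The proliferation marker Mki67 was at 34.5 to 37.6 FPKM in Control and at 38.5, 38.4 and 22.8 FPKM in RT-MPs. Its log2 change was −0.15, and 0.09 without RT-MPs replicate 3. The shares called were 14.3% for end joining, 3.13% for excision and mismatch repair, 4.65% for replication and 2.5% for mitosis, against 3.99% of all tested genes. The medians were −0.14 for end joining, −0.11 for excision and mismatch repair, −0.15 for replication and −0.02 for mitosis, and no difference between lists was tested. Without RT-MPs replicate 3 they were −0.06, −0.06, −0.16 and 0.05, and 37.2% of the replication genes and 7.5% of the mitosis genes were called, against 21.4% of all tested genes. All 6 genes called in these lists lost the call when any 1 Control library was left out (adjusted p between 0.135 and 0.233) and kept it without RT-MPs replicate 3. No tested gene at all was called without Control replicate 1 or 3, so those losses are not particular to these 6 genes. Rescaling to a common sum left Aurkb at 0.05, where the median of all tested genes was −0.38.

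The mean of the 33 genes was also set against these lists within each library, where a common scaling of the library has little effect. On the log2(FPKM + 1) scale the set minus the replication genes was −1.33, −1.34 and −1.34 in Control replicates 1 to 3 and −1.33, −1.28 and −1.49 in RT-MPs replicates 1 to 3, so that the groups overlapped. The set minus the mitosis genes was −1.65, −1.68 and −1.64 in Control and −1.81, −1.79 and −1.90 in RT-MPs, where every RT-MPs library showed the wider gap. The mean difference of this second gap, RT-MPs minus Control, was −0.18, and −0.14 without RT-MPs replicate 3. Against the mean of all tested genes the set was at −0.857, −0.914 and −0.887 in Control and −0.939, −0.909 and −1.16 in RT-MPs, so those groups overlapped. The replication genes had means of 3.79, 3.74 and 3.78 in Control and 3.65, 3.64 and 3.54 in RT-MPs. The mitosis genes had 4.11, 4.08 and 4.08, and 4.13, 4.15 and 3.95. The wider gap to the mitosis genes was thus not particular to the set. These are descriptions with no test.

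**Figure D5:**
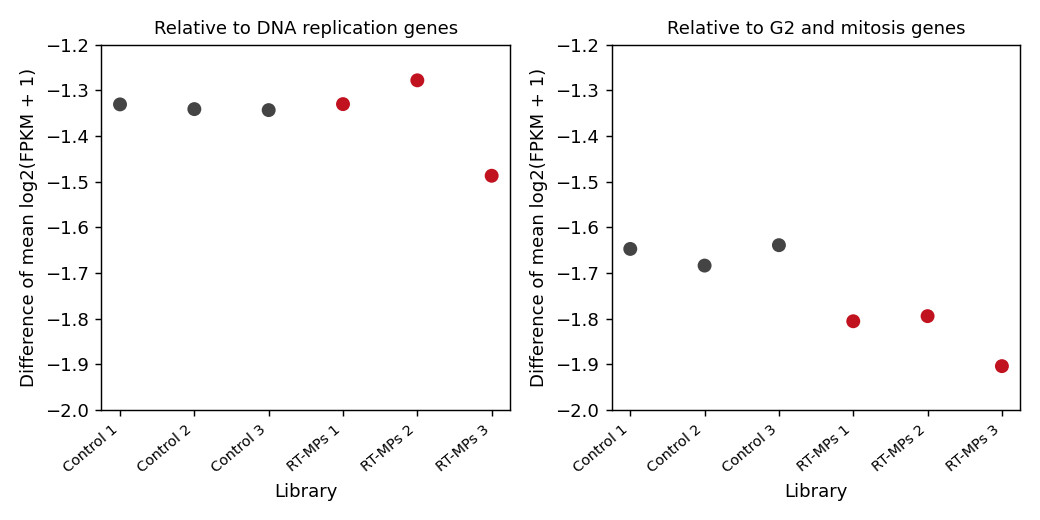
Mean log2(FPKM + 1) of the 33 genes minus that of 43 DNA replication genes (left) or 40 G2 and mitosis genes (right) in each library; grey points are Control and red points RT-MPs. The groups overlap on the left and are apart on the right, at −1.64 to −1.68 in Control and −1.79 to −1.90 in RT-MPs.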

How the data were processed

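The authors deposited FPKM values per gene and library. Reads were aligned with HISAT2 to mm10, per the submitters' processing notes; libraries were stranded mRNA, per the labels' protocols. For the aligner version, the counter, its annotation and its use of strand: not given in the sources used here. FPKM depends on the library total, so reads taken by a few genes lower all others.

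From these values, log2(FPKM + 1) was compared by limma 3.58.1 in R 4.3.3 (eBayes with trend=TRUE), two-sided, over genes with a mean of at least 1 FPKM, with Benjamini-Hochberg adjustment over all 11915 genes and no replicate term. The fit was tested on simulated data. With 3 libraries a group, the smallest exact permutation p is 0.1. Gene models came from GENCODE M21. FPKM times exon length times a library total gave whole reads within 0.1 for 98.7% to 98.9% of low values; these recovered reads served limma voom. Promoters were RefSeq's (GRCm38.p6), and 27 of the 28 member windows continued into the sense transcript. Python 3.11.15, numpy 2.4.6, pandas 2.3.3 and matplotlib 3.10.9 were used.

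The members and lists were chosen with earlier results of these data known. Named genes were all members, 7 fixed pathway genes (1 is not reported here), called pathway genes, up to 2 called genes per direction of each comparison list, and Mki67 and Pcna. Bre and Fam175a were matched as Babam2 and Abraxas1.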

Additional observations from a re-analysis of the deposited data

How the results depend on the processing

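Of the 33 genes, 1 was called over all 6 libraries. With a pseudocount of 0.1, no filter, a mean of at least 5 FPKM (10 genes left, Fancl not among them), TPM, median-ratio scaling or quantile normalization it was 0; it was 2 with trend=FALSE or limma voom on recovered reads (Exo1 and Fancl), and 10 with arrayWeights, all lower, where 27.7% of all tested genes were called lower. Leaving out 1 library gave 0 to 5, with 0 for each library but RT-MPs replicate 3. Calls over all tested genes, 476 here, were 26 without a filter, 46 for TPM, 4576 with arrayWeights and 799 with voom, and leaving out 1 library gave 0 to 2548, the extremes being Control replicates 1 and 3 (0) and RT-MPs replicate 3 (2548). Against 154 higher and 322 lower calls as deposited, there were 231 and 136 after median-ratio scaling and 195 and 153 after quantile normalization. Other pathway genes called were 25 with arrayWeights and 2 with voom, and 0 to 14 with 1 library left out. Over all tested genes 27.7% were called lower and 10.8% higher with arrayWeights, and 5.02% and 1.69% with voom.

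The replicate numbers showed no sign of pairing: deviations of same-numbered libraries correlated at 0.10, −0.08 and −0.03, and those of other pairs at −0.11 to 0.12. With 3 libraries a group, of which RT-MPs replicate 3 stood apart, such values cannot exclude pairing. With the replicate block, 0 genes were called in all and 0 of the 33.

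The median of the set was −0.47 for TPM, where that of all tested genes moved from −0.09 to −0.38. Relative to all tested genes it was −0.08 as deposited, −0.09 for TPM, −0.09 for median-ratio scaling, −0.07 for quantile normalization, −0.14 with a pseudocount of 0.1, no filter or voom, and −0.13 to −0.03 with 1 library left out, the last without RT-MPs replicate 3. Members with a negative change were 29 as deposited, 33 for TPM, 24 for median-ratio scaling and 22 for quantile normalization. The difference in the gap to the mitosis genes, −0.18, was −0.24 with a pseudocount of 0.1, −0.090 with 5, −0.12 at a mean of at least 5 FPKM and −0.25 with voom. Removing the rRNA-like genes from the totals, chosen after seeing the data, left 1 member called. The causes were not tested. Depth limits the low members most, such as Fancl (65 to 145 recovered reads) and Fancb (31 to 136).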
